A study of Sus scrofa with 16 samples.

Results

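The transporters described here are ABCA1, ABCB1, ABCG2 and ABCB6, membrane proteins of the ATP-binding cassette (ABC) family. All probe sets that the array annotation assigns to these symbols were taken, which gave 8 probe sets for 4 of the 6765 genes represented on the array. ABCB1 has 3 of these probe sets, ABCG2 and ABCB6 have 2 each, and ABCA1 has 1. Of the 8 probe sets 5 exceeded the filter level, log2 5, in 4 or more of the 16 arrays and were tested, so each transporter was tested by at least 1 probe set.

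The tissue came from preterm piglets of 2 sows (a Landrace x Large white x Duroc cross), delivered by caesarean section on gestation day 105. Every animal first received parenteral nutrition with small enteral amounts, then enteral nutrition alone from day 3, and tissue was collected on day 5. The 4 groups had 4 arrays each: antibiotics distal, untreated distal, antibiotics proximal and untreated proximal small intestine. Antibiotics were Ampicillin, Gentamycin and Metronidazol, given by mouth and into muscle from birth, and the animals titled untreated received saline. The number in each sample title was read as the animal's, which gives 9 animals, 7 of them with both segments. The litter of each array is not given in the sources used here.

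ABC transporters use the energy of ATP to carry substrates across membranes. In the small intestine, ABCB1 (P-glycoprotein) and ABCG2 (breast cancer resistance protein) sit in the apical membrane of enterocytes and pump drugs and other foreign compounds back into the lumen. ABCA1 hands cholesterol and phospholipid to apolipoprotein A-I on the basolateral side and is induced by the liver X receptors. ABCB6 is a porphyrin transporter of mitochondrial and endolysosomal membranes.

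All values are deposited GCRMA values on a log2 scale, with a floor at 2.14, so a difference of 1 is a doubling, and they rank arrays for 1 probe set but do not compare levels between probe sets. A difference was called where limma's p, adjusted by Benjamini-Hochberg over 11538 probe sets, was under 0.05. Per array 45.1% to 46.5% of probe sets were above the filter level. Untreated distal arrays differed in how far they resembled the antibiotics distal group. A scale was set from 0 (antibiotics proximal mean) to 1 (antibiotics distal mean), as the median over the 606 probe sets called between those groups. Untreated distal animals 83, 88, 89 and 92 stood at 0.42, 0.42, 0.69 and 0.53, and the untreated proximal arrays at 0.038 to 0.24. Most transporter differences that use the untreated distal group are therefore also given without the distal arrays of animals 83 and 88. The proximal arrays of these animals were kept. The tissue was whole intestine, in which fewer cells of a type and less RNA per cell cannot be told apart. Of 18 listed enterocyte markers 11 had a probe set, and all 11 passed the filter, among them VIL1 of the brush border, the fatty acid binding proteins FABP1 and FABP2, and SLC5A1.

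ABCA1, the cholesterol exporter, was the transporter with a called difference. After antibiotics its signal was 4.98-fold lower in distal than in proximal intestine. In antibiotics distal tissue the log2 values were 5.68, 4.68, 7.24 and 6.24 in animals 85, 86, 87 and 95. In antibiotics proximal tissue they were 8.17, 8.41, 8.22 and 8.30 in animals 86, 87, 95 and 98. Every distal array lay below every proximal array, and the proximal arrays were close together, at 8.27 ± 0.11 against 5.96 ± 1.07 for the distal ones (SD, n = 4 each). The log2 difference, distal minus proximal, was -2.32 (SE 0.60, 95% interval -3.59 to -1.04, limma adjusted p = 0.036). ABCA1 was thus 1 of the 4 transporters called between the segments after antibiotics, where 5.25% of all probe sets were called and 2.1% were called lower in distal tissue. Distal arrays lay wholly below proximal arrays in 4.7% of all probe sets.

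The ABCA1 call depended on the arrays and the model. It was lost when any of the 4 antibiotics proximal arrays or antibiotics distal 85, 86 or 95 was left out, with limma adjusted p of 0.062 to 0.13. Over all arrays left out in turn the difference ran from -1.89 to -2.74. With the animal as a fixed block the difference was -2.21 (limma adjusted p = 0.13), and with the animal as a random block it was called (adjusted p = 0.023). Within the 3 antibiotics-treated animals that gave both segments, ABCA1 was lower in distal tissue in each, by log2 differences of -3.49, -1.17 and -1.98 in animals 86, 87 and 95.

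In untreated animals ABCA1 showed no such separation. Untreated distal tissue had 7.37, 4.37, 5.63 and 6.86 in animals 83, 88, 89 and 92, and untreated proximal tissue had 5.36, 6.23, 7.22 and 6.65 in the same animals. The groups overlapped, and the difference of -0.31 had a 95% interval of -1.59 to 0.97 (limma adjusted p = 0.98). Without the distal arrays of animals 83 and 88, with their proximal arrays kept, the difference was -0.12. Within animals the distal minus proximal difference was 2.01 and 0.21 in animals 83 and 92, but -1.86 and -1.59 in animals 88 and 89. The spread of ABCA1 within the untreated distal group (SD 1.34) was wide against that of the antibiotics proximal group (SD 0.11).

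Antibiotics and untreated animals were then compared within each segment for ABCA1. In proximal tissue every antibiotics array lay above every untreated array, with means of 8.27 ± 0.11 and 6.37 ± 0.78. Such a separation in the same direction was found for 1.31% of all probe sets. The difference of 1.91 (SE 0.60, 95% interval 0.63 to 3.19, unadjusted p = 0.0061 in limma) did not pass the adjustment (adjusted p = 0.20). In distal tissue the means were 5.96 ± 1.07 with antibiotics and 6.06 ± 1.34 without (SD, n = 4 each), a difference of -0.10 with an interval of -1.38 to 1.18 (limma adjusted p = 0.96), and without untreated distal animals 83 and 88 it was -0.28. The test of the difference between the 2 antibiotic effects, distal minus proximal, gave -2.01 (SE 0.85, limma adjusted p = 0.67, unadjusted p = 0.032), which is no call. With untreated distal animals 83 and 88 left out it was -2.19 (limma adjusted p = 0.57).

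By mean level ABCA1 ran, from high to low, antibiotics proximal, untreated proximal, untreated distal and antibiotics distal. The first step was a gap of 1.91, at the smallest p that an exact two-sided permutation test of 4 against 4 arrays can give (0.029). The next gaps, 0.31 and 0.10, did not exceed the spread (exact permutation p = 0.74 and 0.94). Over the 42 exact tests run on 7 transporter probe sets, 5 reached the smallest p, 3 of them for ABCA1 and 2 for ABCB1, and none passed Benjamini-Hochberg (smallest adjusted p = 0.24). The 7 include an ABCB1 and an ABCB6 probe set below the filter level. With 5 of 42 tests at the smallest p, none could have passed this adjustment, so it decides nothing here. All 3 for ABCA1 compare the antibiotics proximal group with another group.

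**Figure D1:**
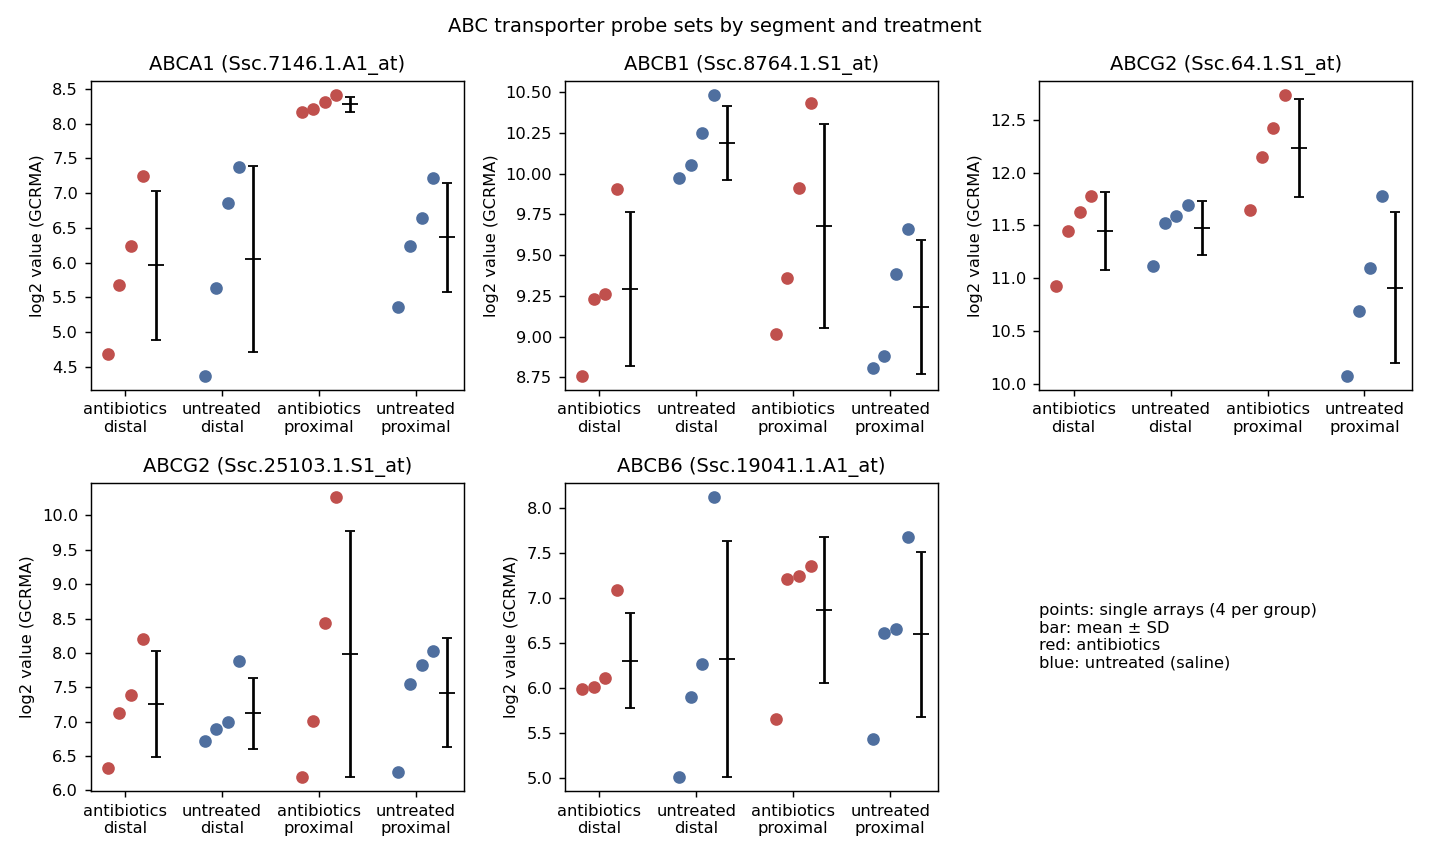
Log2 GCRMA values (vertical axis) of the tested transporter probe sets, 1 point per array with group means and SD, in antibiotics distal, untreated distal, antibiotics proximal and untreated proximal tissue (horizontal axis, 4 arrays each). The antibiotics proximal ABCA1 arrays sit together between 8.17 and 8.41, above all other arrays of that probe set.

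ABCB1, the P-glycoprotein drug pump, had its highest mean in untreated distal tissue. Antibiotics distal tissue had 8.76, 9.26, 9.23 and 9.91 in animals 85, 86, 87 and 95, against 10.48, 10.25, 9.97 and 10.06 in untreated distal tissue of animals 83, 88, 89 and 92. No antibiotics array reached the lowest untreated array, a separation in this direction that 6.31% of all probe sets showed. The means were 9.29 ± 0.47 with antibiotics and 10.19 ± 0.23 without (SD, n = 4 each), a log2 difference of -0.90 (SE 0.32, 95% interval -1.58 to -0.23). Its unadjusted limma p was 0.012 and its adjusted p 0.17, so it was not called, and 2.12% of all probe sets were called in that comparison. Without untreated distal animals 83 and 88 it was -0.72 (limma adjusted p = 0.37).

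In proximal tissue ABCB1 had 10.44, 9.01, 9.91 and 9.36 with antibiotics and 8.88, 9.66, 8.81 and 9.39 without. These groups overlapped, and the difference of 0.50 (95% interval -0.18 to 1.17) was not called (limma adjusted p = 0.56). The 2 antibiotic effects on ABCB1 thus had opposite signs, and their difference, distal minus proximal, was -1.40 (SE 0.45, unadjusted p = 0.0069, limma adjusted p = 0.42), which is no call, and without untreated distal animals 83 and 88 it was -1.22 (adjusted p = 0.59). In that comparison 0.191% of all probe sets were called.

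In untreated animals ABCB1 was higher in distal than in proximal tissue on every array, at 10.19 ± 0.23 and 9.18 ± 0.41 (SD, n = 4 each). A separation of this kind and direction was found for 1.94% of all probe sets. The log2 difference was 1.01 (SE 0.32, 95% interval 0.33 to 1.68, unadjusted p = 0.0060, limma adjusted p = 0.29), and 0.364% of all probe sets were called there. All 4 untreated animals had the higher value in distal tissue, by 1.61, 0.59, 1.17 and 0.67 in animals 83, 88, 89 and 92. Without untreated distal animals 83 and 88 the difference was 0.83 (limma adjusted p = 0.46). After antibiotics the distal minus proximal difference was -0.39 (95% interval -1.07 to 0.29, limma adjusted p = 0.61), and by animal it was -1.18, 0.22 and -0.01 in animals 86, 87 and 95.

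From high to low the ABCB1 means ran untreated distal, antibiotics proximal, antibiotics distal and untreated proximal. Neighbours in this order differed by 0.51, 0.39 and 0.11, none beyond the spread between arrays (exact permutation p = 0.20, 0.34 and 0.74). The other ABCB1 probe sets gave no usable level. The first stood at the floor of 2.14 on every array, and the other ranged from 2.18 to 3.21.

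ABCG2, the breast cancer resistance protein, had its highest mean in antibiotics proximal tissue. Antibiotics proximal tissue had 12.73, 12.42, 12.15 and 11.64 in animals 86, 87, 95 and 98 (the ABCG2 probe set of higher mean), against 10.08, 11.77, 10.68 and 11.10 in untreated proximal tissue of animals 83, 88, 89 and 92. The groups met at 1 pair of arrays, antibiotics animal 98 lying below untreated animal 88. The means were 12.24 ± 0.46 with antibiotics and 10.91 ± 0.71 without (SD, n = 4 each), a 2.51-fold difference. On the log2 scale it was 1.33 (SE 0.33, 95% interval 0.62 to 2.03, unadjusted p = 0.0011, limma adjusted p = 0.12), which was not called. In proximal tissue 0.147% of all probe sets were called. Without untreated proximal animal 88 the difference was 1.62 and was called (limma adjusted p = 0.010). Calls over all 11538 probe sets then rose from 17 to 556. Of the 16 arrays left out in turn, this was the only 1 whose removal gave an ABCG2 call in proximal tissue.

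In distal tissue ABCG2 had 11.62, 11.44, 10.93 and 11.78 with antibiotics and 11.11, 11.69, 11.58 and 11.52 without. The difference was -0.03 with a 95% interval of -0.74 to 0.67 (limma adjusted p = 0.98). The difference between the 2 antibiotic effects was -1.36 (SE 0.47, unadjusted p = 0.011, limma adjusted p = 0.50). Without untreated distal animals 83 and 88 the distal difference was -0.11, the difference of effects -1.44 and the untreated difference between segments 0.64, with limma adjusted p of 0.93, 0.58 and 0.60. Between segments ABCG2 differed by -0.79 after antibiotics (95% interval -1.50 to -0.09, limma adjusted p = 0.22) and by 0.57 without (95% interval -0.14 to 1.27, limma adjusted p = 0.77). By animal it was lower in distal tissue in all 3 antibiotics-treated animals, by -1.29, -1.49 and -0.37, and higher in 3 of 4 untreated animals, by 1.04, 0.90 and 0.42 with -0.08 in animal 88.

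The order of ABCG2 means was antibiotics proximal, untreated distal, antibiotics distal and untreated proximal. The gaps were 0.76, 0.03 and 0.53, none beyond the spread (exact permutation p = 0.057, 0.89 and 0.26). The ABCG2 probe set of lower mean did not follow the first closely. Over the 16 arrays Pearson's r between them was 0.30, and 0.22 after the group means were removed. It had 8.44, 10.27, 7.01 and 6.19 in antibiotics proximal and 8.03, 7.83, 6.27 and 7.55 in untreated proximal tissue. There the difference was 0.56 (95% interval -0.90 to 2.02, limma adjusted p = 0.79), and without animal 87 it was -0.21. In distal tissue this probe set averaged 7.26 ± 0.77 with antibiotics and 7.12 ± 0.52 without (SD, n = 4 each), a difference of 0.14 (limma adjusted p = 0.95), or 0.40 without untreated distal animals 83 and 88.

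ABCB6, the porphyrin transporter, had 7.09, 5.99, 6.02 and 6.11 in antibiotics distal and 6.27, 8.13, 5.01 and 5.90 in untreated distal tissue. In proximal tissue it had 7.25, 7.21, 7.36 and 5.66 with antibiotics and 6.61, 6.66, 5.44 and 7.69 without. The groups overlapped in every comparison. The difference between antibiotics and untreated was -0.02 in distal tissue (95% interval -1.29 to 1.25) and 0.27 in proximal tissue (-0.999 to 1.54), with limma adjusted p of 0.99 and 0.90. Without untreated distal animals 83 and 88 the distal difference was 0.85 (limma adjusted p = 0.49) and the untreated distal minus proximal difference -1.14 (adjusted p = 0.49). From high to low the means were antibiotics proximal, untreated proximal, untreated distal and antibiotics distal, with gaps of 0.27, 0.27 and 0.02, all inside the spread (exact permutation p = 0.63, 0.77 and 0.94).

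Within antibiotics-treated animals ABCB6 was lower in distal tissue by -1.25, -1.19 and -1.25 in animals 86, 87 and 95. Untreated animals gave -0.35, 1.47, -0.43 and -1.79. With the animal as a fixed block the antibiotics difference was -1.23 (SE 0.49), and without the block it was -0.56 (SE 0.60). Neither was called (limma adjusted p = 0.20 and 0.72). The other ABCB6 probe set lay between 2.14 and 2.26 on all arrays and gave no usable level.

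**Figure D2:**
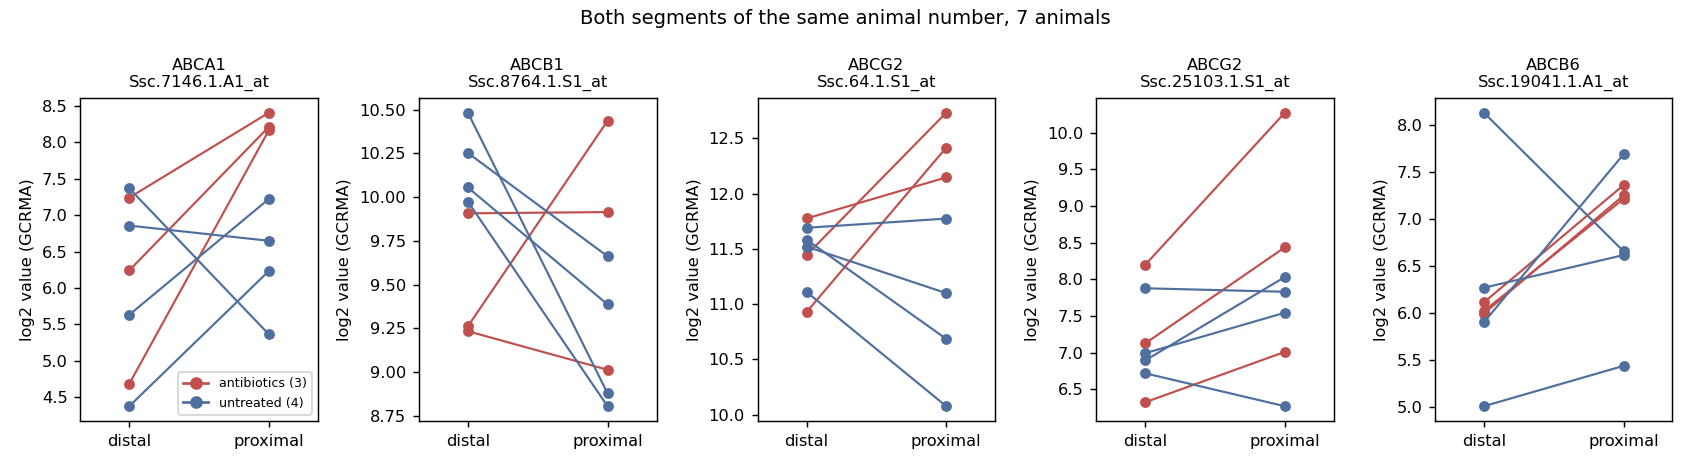
Log2 GCRMA values (vertical axis) of the tested transporter probe sets in distal and proximal tissue (horizontal axis), with a line joining the segments of each animal that gave both, 3 antibiotics-treated (red) and 4 untreated (blue). ABCB1 is higher in distal tissue in all 4 untreated animals, and ABCA1, ABCB6 and both ABCG2 probe sets are lower in distal tissue in all 3 antibiotics-treated animals. The share of all probe sets with such signs was not counted. Among these differences limma called only that of ABCA1 after antibiotics.

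Over the 4 transporters, each taken at its probe set of highest mean, none was called in the comparison of antibiotics with untreated in either segment, in the difference of these effects, or between segments in untreated animals. At an unadjusted limma p under 0.05 there were 2 in proximal tissue (ABCA1 and ABCG2), where 12.9% of all probe sets fell under it. In distal tissue there was 1 (ABCB1), with 15.8% of all probe sets. In the difference of effects there were 3 (ABCA1, ABCB1 and ABCG2), with 6.62% of all probe sets. Between segments there were 2 after antibiotics (ABCA1 and ABCG2), with 17% of all probe sets, and 1 in untreated animals (ABCB1), with 7.99% of all probe sets. These comparisons share groups, so they are not separate evidence.

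**Figure D3:**
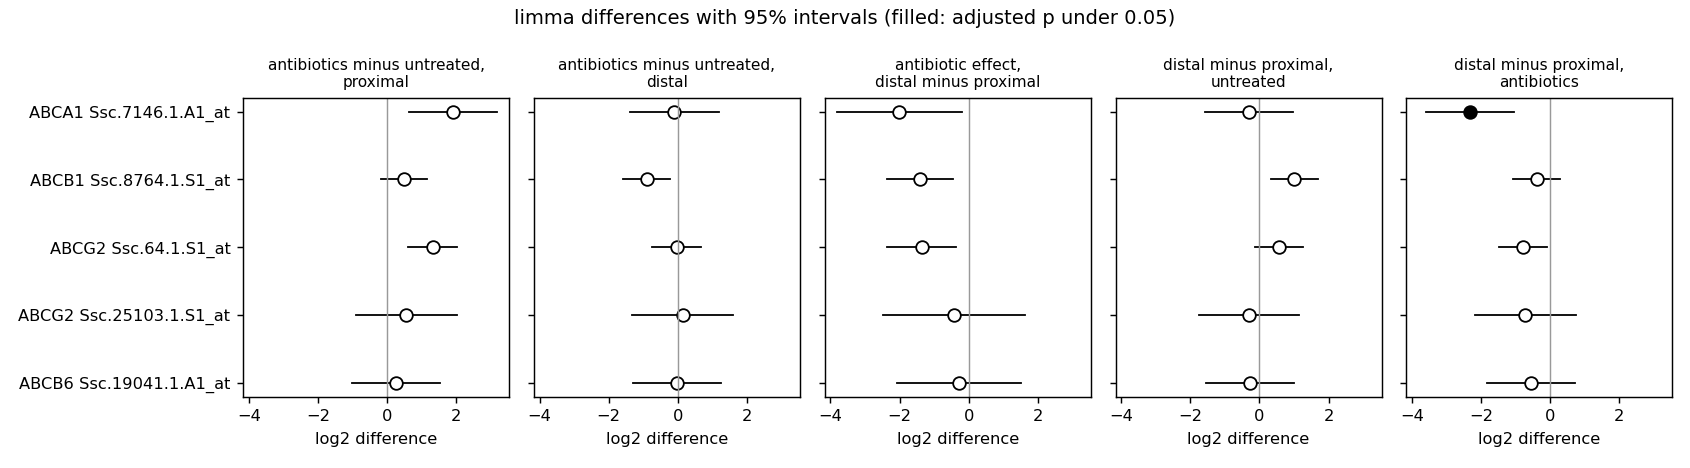
Log2 difference with its 95% limma interval (horizontal axis) for each tested transporter probe set for antibiotics minus untreated, the difference of these effects and distal minus proximal tissue, with a filled point where the adjusted p was under 0.05. The only called value is ABCA1 after antibiotics, distal minus proximal, at -2.32.

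Marker genes of other cells that moved between the same groups are given beside these results. For macrophages, which also use ABCA1 to export cholesterol, 8 of 13 listed markers had a probe set, 6 passed the filter, and CD14 and MARCO did not. The summed log2 value of the 6 was 36.5 to 44.2 in antibiotics distal, 52.1 to 55.0 in untreated distal, 43.6 to 51.8 in antibiotics proximal and 50.3 to 55.3 in untreated proximal tissue. CD163, a scavenger receptor of macrophages, fell in distal tissue with antibiotics (limma adjusted p = 0.0056), where all antibiotics distal arrays lay below the filter level and untreated ones averaged 9.03 ± 1.58, at least 16.4-fold lower against that level. The complement gene C1QC fell there too (-2.05, limma adjusted p = 0.040), but not with no filter (adjusted p = 0.13), with only the arrays compared (0.057) or without untreated distal animals 83 and 88 (-1.76, 0.13). The count of 2, with 2.12% of all probe sets called, was 1 with any single distal array left out, and also without antibiotics proximal animal 86 or untreated proximal animal 83, or without both untreated distal animals 83 and 88. C1QC was also lower in distal than in proximal tissue after antibiotics (-2.46, limma adjusted p = 0.0070).

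Enterocyte markers summed to 137.8 to 141.9 in antibiotics distal, 141.8 to 149.6 in untreated distal, 145.0 to 153.5 in antibiotics proximal and 137.6 to 149.1 in untreated proximal tissue. Of the 11 tested, APOA4 and SLC5A1, an apolipoprotein of chylomicrons and the sodium-glucose transporter, were called, both lower in distal than in proximal tissue after antibiotics, where 2.1% of all probe sets were called lower. Endothelial markers (5 of 11 tested) and smooth muscle markers (6 of 9 tested) had no call in any comparison. Among erythroid genes HBB alone of 10 passed the filter and was not called, and none of 9 T cell markers passed. The 5′ minus 3′ difference of the control probe sets, which falls as RNA is degraded, was -3.75 ± 0.62 in antibiotics distal, -3.49 ± 0.32 in untreated distal, -3.01 ± 0.40 in antibiotics proximal and -3.33 ± 0.79 in untreated proximal tissue (log2, SD, n = 4 each). With it as a covariate the ABCA1 difference after antibiotics was -2.72 (limma adjusted p = 0.035). The part of the macrophage and enterocyte markers in the transporter values was not tested.

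Genes of the cholesterol efflux and liver X receptor pathway, to which ABCA1 belongs, were called between the segments after antibiotics and in no other comparison. Of 24 listed genes 18 had a probe set and 16 were tested; 2 were called higher and 4 lower in distal tissue, where 5.25% of all probe sets were called and 2.1% were called lower. The list's median difference was -0.27, against 0.05 over all probe sets. APOE, the apolipoprotein that carries cholesterol from macrophages and other cells, was higher, at 10.49 ± 0.31 in distal and 5.41 ± 0.62 in proximal tissue (log2 difference 5.08, SE 0.69, limma adjusted p = 4.0e-04). APOA4 was lower (-3.01, SE 0.51, limma adjusted p = 0.0030), as was LCAT, which esterifies cholesterol on lipoproteins (-2.54, SE 0.44, adjusted p = 0.0031). LPCAT3, which remodels phospholipids, was lower too (-1.97, SE 0.40, limma adjusted p = 0.0087). Members of this list therefore moved both ways while ABCA1 was lower in distal tissue. With the animal as a fixed block 4 of the 16 were called, and without untreated distal animals 83 and 88 it was 8. With 1 array left out the count ran from 4, without antibiotics proximal animal 95 or antibiotics distal animal 85, to 8.

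Drug metabolism genes and xenobiotic receptors are the enzyme partners of ABCB1 and ABCG2 in handling foreign compounds. Of 43 listed genes 29 had a probe set and 22 were tested. After antibiotics 8 were called lower and none higher in distal than in proximal tissue, where 5.25% of all probe sets were called and 2.1% were called lower. The list median was -1.64, against 0.05 over all probe sets. With untreated distal animals 83 and 88 left out the list had 8 called lower and 1 higher, the sulfotransferase SULT1E1 (2.85). EPHX1, the microsomal epoxide hydrolase, is 1 of the 8 and lay below the filter level on all distal arrays of both treatments, so it passed the filter through its proximal arrays alone. It ranged from 2.31 to 3.22 in antibiotics distal tissue and averaged 7.80 ± 0.25 in antibiotics proximal tissue, at least 6.95-fold lower in distal tissue, taking the filter level as the upper limit there. GSTO1, a glutathione transferase, was lower by a log2 difference of -2.23 (SE 0.34, limma adjusted p = 0.0011). POR, which passes electrons to cytochrome P450 enzymes, was lower by -2.35 (SE 0.41, adjusted p = 0.0035 in limma). CYP3A29, a porcine P450 of the 3A family, averaged 9.16 ± 0.91 in distal and 14.76 ± 0.21 in proximal tissue (-5.61, SE 1.02, limma adjusted p = 0.0041).

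Between segments in untreated animals EPHX1 was the 1 gene of this list called. It was at least 3.04-fold lower in distal tissue by the same limit, at 3.15 to 3.20 in distal and 5.39 to 7.39 in proximal tissue. With antibiotics FMO1, a flavin monooxygenase, fell in distal tissue, with all antibiotics distal arrays below the filter level at 3.01 to 3.95 and untreated ones at 5.11 to 6.92, at least 1.66-fold lower by the same limit (limma adjusted p = 0.0065). MGST1, a membrane-bound glutathione transferase, fell there too (-1.30, SE 0.32, adjusted p = 0.049 in limma). The call of MGST1 was lost with no filter, with only the arrays compared, with the random block, with the 5′ minus 3′ covariate and without untreated distal animals 83 and 88 (limma adjusted p = 0.12, 0.054, 0.052, 0.052 and 0.19), while FMO1 was called in each. FMO1 also lay below the filter level in antibiotics proximal tissue, at 3.63 to 4.85. It therefore passed the filter through its untreated arrays alone, the arrays in which it is high. Without untreated distal animals 83 and 88 SULT1E1 was called higher with antibiotics (2.68, limma adjusted p = 0.0077). The list's count of 2, with 2.12% of all probe sets called, was 1 when any antibiotics distal array was left out, or untreated distal animal 83, 88 or 92, antibiotics proximal animal 86 or 95, or untreated proximal animal 83, 88 or 92. In proximal tissue no member of the list was called, and the list medians were -0.31 in distal and 0.51 in proximal tissue for antibiotics minus untreated. ABCB1 and ABCG2 were not called in any of these comparisons.

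Heme and porphyrin metabolism is the pathway of ABCB6. Of 27 listed genes 18 had a probe set and 16 were tested. ALAD, which joins aminolevulinic acid into porphobilinogen, was the 1 gene called, higher with antibiotics in distal tissue at 9.15 ± 0.32, against 7.85 ± 0.48 in untreated distal tissue (log2 difference 1.30, SE 0.32, limma adjusted p = 0.047). In that comparison 2.12% of all probe sets were called, so 1 call among 16 genes says little about the list. Without untreated distal animals 83 and 88 (ALAD 1.18, adjusted p = 0.12 in limma) and with no filter (adjusted p = 0.11) the list had 0 calls, and with the 5′ minus 3′ covariate it had 2. It also had 0 with any antibiotics distal array left out, or with untreated distal animal 83, 89 or 92, antibiotics proximal animal 86, 95 or 98, or untreated proximal animal 89 or 92 left out. The list medians for antibiotics minus untreated were 0.37 in distal and 0.41 in proximal tissue, against 0.0036 and -0.07 over all probe sets. Of 13 listed genes of the apical membrane scaffold, which anchors ABCB1 and ABCG2 at the brush border, 11 had a probe set and 10 were tested. Limma called none in any comparison. At an unadjusted limma p under 0.05 there were 2 for antibiotics in proximal tissue, with 12.9% of all probe sets. Between segments there was 1 in untreated animals and 1 after antibiotics, with 7.99% and 17% of all probe sets.

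Other ABC transporters were measured alongside the 4. Of 44 listed genes 11 had a probe set and 6 were tested: ABCC2, ABCD3, ABCD4, ABCF1, ABCG8 and TAP1. ABCA4, ABCB11, ABCC6, CFTR and ABCF2 were too dim to test, as were further probe sets of TAP1 at 2.14 to 3.41. Limma called 1 of the 6 genes for antibiotics in distal tissue, where 2.12% of all probe sets were called. It called 1 between segments after antibiotics, where 5.25% of all probe sets were called. So few calls among 6 genes say little about the list. TAP1, which moves peptides into the endoplasmic reticulum for antigen presentation, fell with antibiotics in distal tissue, to 7.78 ± 0.59, against 10.48 ± 1.08 in untreated distal tissue (SD, n = 4 each; log2 difference -2.71, SE 0.50, limma adjusted p = 0.0098), and without untreated distal animals 83 and 88 the difference was -3.26 (adjusted p = 0.0059). ABCF1, a cytosolic ABC protein of translation initiation, was higher in distal than in proximal tissue after antibiotics, at 8.26 ± 0.18 and 7.19 ± 0.42 (log2 difference 1.07, SE 0.28, limma adjusted p = 0.037). This call was lost with no filter, with the animal as a fixed block, with the 5′ minus 3′ covariate, and when any antibiotics distal array, antibiotics proximal animal 87, 95 or 98, or untreated distal animal 92 was left out.

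ABCD3, a peroxisomal importer of fatty acids and bile acid intermediates, had 3 probe sets that disagreed on the call. After antibiotics its distal minus proximal difference was -1.13 (limma adjusted p = 0.076), -1.56 (adjusted p = 0.0057) and -2.11 (adjusted p = 0.0066). The first of these is the probe set of highest mean, by which the gene is counted as not called, though it was called without untreated distal animals 83 and 88 (adjusted p = 0.021 in limma). With antibiotics in proximal tissue the 3 probe sets differed from untreated by 1.11, 1.22 and 1.55 (limma adjusted p = 0.20, 0.11 and 0.14). ABCD4, a lysosomal transporter needed for the release of cobalamin, was not called in any comparison. Yet in its tested probe set antibiotics and untreated arrays did not overlap in either segment. Other ABCD4 probe sets, at 3.07 to 5.99 and 3.25 to 3.81 over the arrays, did not pass the filter. ABCD4 is named after its values were seen. Antibiotics distal arrays ranged from 9.28 to 10.45 and untreated distal arrays from 7.82 to 8.63 on the log2 scale. Antibiotics proximal arrays ranged from 7.72 to 10.58 and untreated proximal arrays from 6.16 to 7.34. The differences were 1.56 in distal and 2.16 in proximal tissue (SE 0.47 each, limma adjusted p = 0.10 and 0.086). Antibiotics arrays lay wholly above untreated arrays in 6.4% of all probe sets in distal and in 1.31% in proximal tissue. ABCG8, which with ABCG5 returns plant sterols to the lumen, was not called in any comparison, nor was ABCC2, a pump for conjugated compounds, whose arrays ranged from 2.97 to 8.54.

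**Figure D4:**
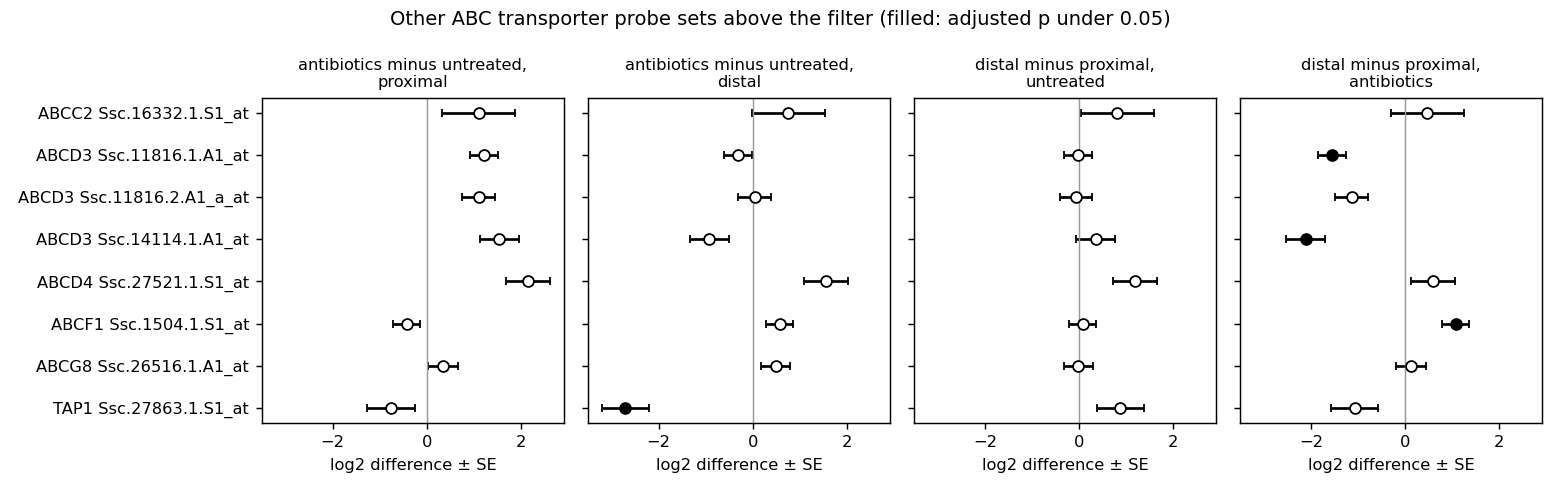
Log2 difference with its SE (horizontal axis) of the tested probe sets of the other ABC genes (vertical axis), for antibiotics minus untreated in each segment and for distal minus proximal in each treatment, with filled points where limma's adjusted p was under 0.05. TAP1 is called in distal tissue at -2.71, and ABCF1 at 1.07 and a pair of ABCD3 probe sets at -1.56 and -2.11 between the segments after antibiotics.

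The genes whose values ran most like each transporter over the 16 arrays were named by Pearson's r, as a description over arrays that share animals and groups. For ABCA1 they were B3GNT5 (r = 0.86), CCDC186 (r = 0.81) and PPIG (r = 0.79). For ABCB1 they were CFL1 (r = 0.85), ATP1B1 (r = 0.79) and DAZAP2 (r = 0.78). For ABCG2 they were ZDHHC9 (r = 0.88), CDIP1 (r = 0.88) and PGRMC1 (r = 0.87), and for ABCB6 they were MXD3 (r = 0.72), DGUOK (r = 0.70) and PRMT2 (r = 0.69). These genes were picked by likeness over the same arrays, so group patterns shared with a transporter are no separate support. ATP1B1, the beta subunit of the sodium pump, averaged 10.83 ± 0.60 in antibiotics distal and 12.23 ± 0.28 in untreated distal tissue, beside ABCB1 (log2 difference -1.40, SE 0.45, limma adjusted p = 0.12, not called). In proximal tissue ATP1B1 differed by -0.30 with antibiotics (limma adjusted p = 0.83), where ABCB1 differed by 0.50. PGRMC1, a heme-binding membrane protein, averaged 12.94 ± 0.44 in antibiotics proximal and 11.80 ± 0.50 in untreated proximal tissue, beside ABCG2 (log2 difference 1.14, SE 0.26, limma adjusted p = 0.096, not called). Among the transporters, ABCB6 and the ABCG2 probe set of lower mean gave r = 0.55, and 0.51 after the group means were removed.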

How the data were processed

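Total RNA was labelled with a 3′ IVT Express kit and hybridised to Affymetrix porcine arrays, per the labels' protocols. GCOS 1.2, GCRMA and limma were used, per the submitters' processing notes, with settings and genome build not given in the sources used here. Per array, the authors deposited 1 log2 value per probe set.

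Of 24123 probe sets 124 controls were left out, 10069 had 1 gene, 198 several and 13732 none. Genes were named from GEO's platform annotation. Probe sets above log2 5 on at least 4 of 16 arrays were tested (11538 in all, 5759 with 1 gene, for 4684 genes), by group means in limma 3.58.1 (R 4.3.3, lmFit and eBayes) over all arrays. Adjusted p-values (Benjamini-Hochberg) had a threshold of 0.05. Intervals are 95%. Array number limits precision, and the p-values measure the spread between these arrays, which share 2 litters. Exact two-sided permutation tests were run for the 6 pairs of groups. They permuted single arrays freely and ignored that distal and proximal groups of a treatment share animals. The transporters and the gene lists were chosen with earlier results of these data known. List counts and medians set beside those over all probe sets are therefore a description and no independent support.

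Segments were paired by the number in the titles. The residual correlation of the 7 pairs was 0.029 to 0.53, above 0.1 for 5. In 4 of the 7 pairs the distal array was most like the proximal array of the same number. In animals 86, 87 and 89 it was more like another proximal array. A gene stands at its probe set of highest mean. Named are all transporter probe sets, the 3 genes most like each, and at most 4 called genes per list and comparison, by moderated t. Alternatives were no filter or a filter level of log2 7, quantile normalization or equal medians on top of GCRMA, array quality weights, only the arrays compared, all probe sets averaged, the animal as a random (statmod 1.5.0, correlation 0.17) or fixed block, and each array left out. The 5′ minus 3′ covariate and leaving out untreated distal 83 and 88 were chosen after seeing the data. The fit was tested on simulated data. Figures used matplotlib 3.10.9.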

Additional observations from a re-analysis of the deposited data

Results flagged for a closer look

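Arrays lay far from the rest of their group for ABCB6 (its tested probe set) in 2 of the 20 groups examined, and chance gives such a gap in about 1 group in 20. In antibiotics distal tissue animal 85 stood at 7.09, above the other arrays at 5.99 to 6.11, and its gap was 0.89 of the group's range. In antibiotics proximal tissue animal 98 stood at 5.66, below the other arrays at 7.21 to 7.36, and its gap was 0.91 of the group's range. Animals 85 and 98 are those with an array of 1 segment alone.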

How the results depend on the processing

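No transporter gained or lost a call with the filter at log2 7, after quantile normalization or equal medians, with only the arrays compared, the random block, the 5′ minus 3′ covariate or without untreated distal animals 83 and 88. Between segments after antibiotics the count of called transporters, 1 in the main setting, was 0 with no filter (ABCA1 adjusted p = 0.13) and 0 with the animal as a fixed replicate block. It was 3 with array quality weights. The weights also gave 1 call for antibiotics in distal tissue (ABCB1), 1 in proximal tissue (ABCG2) and 1 for the difference of effects (ABCB1). Calls also rose over all 11538 probe sets with the weights. They rose from 606 to 3008 between segments after antibiotics. For antibiotics they rose from 245 to 1665 in distal and from 17 to 951 in proximal tissue, and for the difference of effects from 22 to 210. With 1 array left out the count of called transporters ran from 0 to 1 between segments after antibiotics. It ran from 0 to 1 for antibiotics in proximal tissue and stayed at 0 to 0 in the other comparisons. The fixed block could not be used for antibiotics against untreated, because each animal has 1 treatment, and the random block changed no call of a transporter. The mean of all probe sets of ABCB1 and of ABCB6 did not pass the filter and has no value.

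Called probe sets for antibiotics in proximal tissue were 17, against 1 with no filter, 31 with equal medians, 951 with quality weights, 0 with only the arrays compared and 11 with the covariate, and 2 to 556 with 1 array left out. In distal tissue they were 245, against 138 with no filter, 1665 with weights, 430 with only the arrays compared, and 106 to 353. For the difference of effects they were 22, against 11 with no filter, 210 with weights, 39 with the random block, 9 with the fixed block, 10 without untreated distal 83 and 88, and 10 to 44. Between segments after antibiotics they were 606, against 3008 with weights and 353 to 680. In untreated animals they were 42, against 80 with weights, 20 with only the arrays compared, 74 with the random block, 78 with the covariate, and 25 to 77.

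The sign turned in 33 recomputations of uncalled transporter differences, and the cause was not tested. The ABCG2 probe sets are called A (higher mean) and B. For antibiotics in distal tissue, leaving out 1 array gave -0.66 to 0.34 for ABCA1 (0.33, 0.34 and 0.17 without antibiotics 86, untreated 83 and 92), -0.46 to 0.58 for ABCB6 (0.081, 0.073, 0.042 and 0.58 without antibiotics 86, 87, 95 and untreated 88), -0.16 to 0.14 for ABCG2 A (0.14, 0.038 and 0.0019 without antibiotics 87, untreated 88 and 89) and -0.18 to 0.45 for ABCG2 B (-0.18 without antibiotics 87). Other settings gave ABCB6 0.013 by quantile normalization (exact test and limma), 0.093 with the covariate and 0.85 without untreated 83 and 88, and gave ABCG2 A 0.0056 by quantile normalization (exact test and limma), 0.053 with weights, 0.052 as the mean of its probe sets and 0.092 with the covariate. In proximal tissue it was -0.12 to 0.67 for ABCB6 (-0.12 without untreated 89) and -0.21 to 1.15 for ABCG2 B (-0.21 without antibiotics 87, and -0.057 with weights). Between segments in untreated animals it was -0.75 to 0.25 for ABCA1 (0.25 without distal 88, and 0.090 with weights) and -0.87 to 0.17 for ABCB6 (0.090 and 0.17 without proximal 92 and distal 89), and after antibiotics -1.31 to 0.047 for ABCG2 B (0.047 without proximal 87). For the difference of effects it was -0.73 to 0.31 for ABCB6 (0.31 and 0.095 without untreated distal 88 and proximal 89, and 0.58 without untreated distal 83 and 88) and -1.02 to 0.35 for ABCG2 B (0.35 without antibiotics proximal 87, and 0.17 with weights).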
